A study of Mus musculus with 11 samples.

Results

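Transcripts of heat shock proteins and molecular chaperones were followed across 6 kinds of mouse pluripotent stem cell culture on 11 expression bead arrays. The genes were taken by name, as those whose symbol starts with Hspa, Hspb, Hspd, Hspe, Hsph, Hsp90, Dnaja, Dnajb or Dnajc, or is Cct followed by a digit. By updated symbol, the array held 73 such genes on 100 probes. Of these genes, 51 had a probe that was detected, with a detection p-value below 0.01, on 2 arrays or more, and are the members described here, each by its brightest detected probe. They stand among 9620 genes and unnamed probes that passed the same filter. The members comprised 16 cytosolic and nuclear J proteins, 6 cytosolic HSP70, HSP110 and exchange factor genes, 1 cytosolic HSP90 gene, 8 genes of the endoplasmic reticulum, 8 of the mitochondrion, 7 subunits of the TRiC chaperonin and 4 genes named for small heat shock proteins. Dnajc4 was in none of these lists.

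Chaperones hold unfolded protein chains and help them reach their native shape. HSP70 proteins bind short exposed stretches in a cycle driven by ATP, J proteins (the Dnaj genes) bring the clients and start hydrolysis, and exchange factors such as the HSP110 proteins release them. HSP90 takes over later folding steps of kinases and receptors, TRiC encloses actin and tubulin in a double ring, and HSP60 with its lid HSP10 does similar work inside mitochondria. In the endoplasmic reticulum the HSP70 protein BiP and the HSP90 protein GRP94 fold secreted proteins. Heat shock factors raise the cytosolic and mitochondrial genes under protein stress, and the unfolded protein response raises those of the endoplasmic reticulum.

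ESC were male mouse embryonic stem cells, the culture counterpart of the embryo before implantation. EpiSC were male epiblast stem cells of the GOF18 line, which resemble the epiblast after implantation. Epi-Sox2 were male GOF18 cells that overexpress wild-type Sox2 and were kept in conditioned EpiSC medium (CM). EpiSC-GFP+ and EpiSC-GFP- were male E3 epiblast stem cells, grown in CM and sorted by flow cytometry for and against a green fluorescent Oct4 reporter. T9-EpiSC were male T9 epiblast stem cells grown on CF1 fibroblasts in a medium labelled UM, held for 2 days without Fgf2 and harvested without the fibroblasts. The labels give no medium for ESC and EpiSC and no promoter for the Sox2 transgene. GOF18 supplied both EpiSC and Epi-Sox2, and E3 supplied both sorted fractions. ESC were a single group, so that line and state cannot be told apart in the comparisons with ESC. Line and culture cannot be told apart in T9-EpiSC either. The first 5 groups had 2 arrays each, labelled biological replicates with no word on separate cultures, and T9-EpiSC had 1. The p-values therefore measure the spread between these arrays.

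Mean bead intensity per array was 622.5 and 594.8 in ESC and 199.7 to 371.0 elsewhere, and 9250 to 11675 of 25697 probes were detected. Between 38 and 49 members were detected per array, with the fewest in EpiSC-GFP-. Replicate arrays correlated over the members with r from 0.991 to 0.997. Levels below are normalized log2 signals, and differences are log2 differences with the standard error of the linear model, which pools the spread of all groups. A difference was called at a Benjamini-Hochberg adjusted p under 0.05 over all 9620 features. Markers fitted the labels of ESC and EpiSC. The 6 embryonic stem cell markers, Zfp42 and Esrrb among them, summed to between 35670 and 37540 signal units in ESC and to between 671 and 673 in EpiSC. The 5 tested epiblast markers, Fgf5 among them, summed to between 1419 and 1468 in ESC and to between 9161 and 10457 in EpiSC. EpiSC-GFP+ stood between them, with 27365 to 27512 for the embryonic stem cell markers and 4063 to 4334 for the epiblast markers. The embryonic stem cell markers summed to 9604 to 10241 in Epi-Sox2, 2314.8 to 2368.5 in EpiSC-GFP- and 1048 in T9-EpiSC. Of 16 listed fibroblast genes 10 were tested, and their summed signal was 3190 to 3228 in ESC, with 10 of 10 detected, 1167 to 1243 in EpiSC, 2081 to 2244 in Epi-Sox2, 1376 to 1429 in EpiSC-GFP+, 1587 to 1594 in EpiSC-GFP- and 4379 in T9-EpiSC. The sum was highest in T9-EpiSC and ESC. In T9-EpiSC the muscle actin Acta2 (10.97) and vimentin, Vim (10.86), read highest of these genes, and neither Lox nor Col3a1 was detected there. The part of fibroblast RNA in the differences below was not tested. In cultures measured as a whole, fewer cells of a type and less RNA per cell cannot be told apart.

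The comparison of EpiSC with ESC asked how chaperone transcripts differ between embryonic and epiblast stem cells. Of the 51 members 24 fell in EpiSC and 14 rose, which is 47.1% and 27.5% of them, while 26.0% of all features fell and 40.2% rose (66.3% called). The median difference was -0.13 over the members and 0.22 over all features. Every one of the 24 falls was also called after cyclic loess and after median scaling of the arrays, as were 8 of the 14 rises. These scalings moved the median of all features to 0.01 and -0.13, and that of the members to -0.50 and -0.62. Cyclic loess gave 27 falls with 12 rises of members, and 3365 falls with 3230 rises of all 9620 features. Median scaling gave 26 falls with 8 rises of members, and 3476 falls with 2312 rises of all features. Without them all features had 2503 falls and 3871 rises, so that both scalings shifted calls towards falls. Leaving out each array in turn gave 22 to 24 falls and 13 to 15 rises, and 22 of the falls and 11 of the rises were called in every run. Dnajc4, the member outside the lists, fell by 0.64 ± 0.25 (adjusted p = 0.0499), a call that was lost without either ESC array, EpiSC replicate 1 or either Epi-Sox2 array. Both ESC arrays lay above the other 9 arrays for 20 of the 51 members (39.2%, against 20.6% of all features) and below them for 14 (27.5%, against 30.8%). Dnajc11 and Cct2, counted among the falls and among these 20, reached the detection filter only with their ESC arrays.

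**Figure D1:**
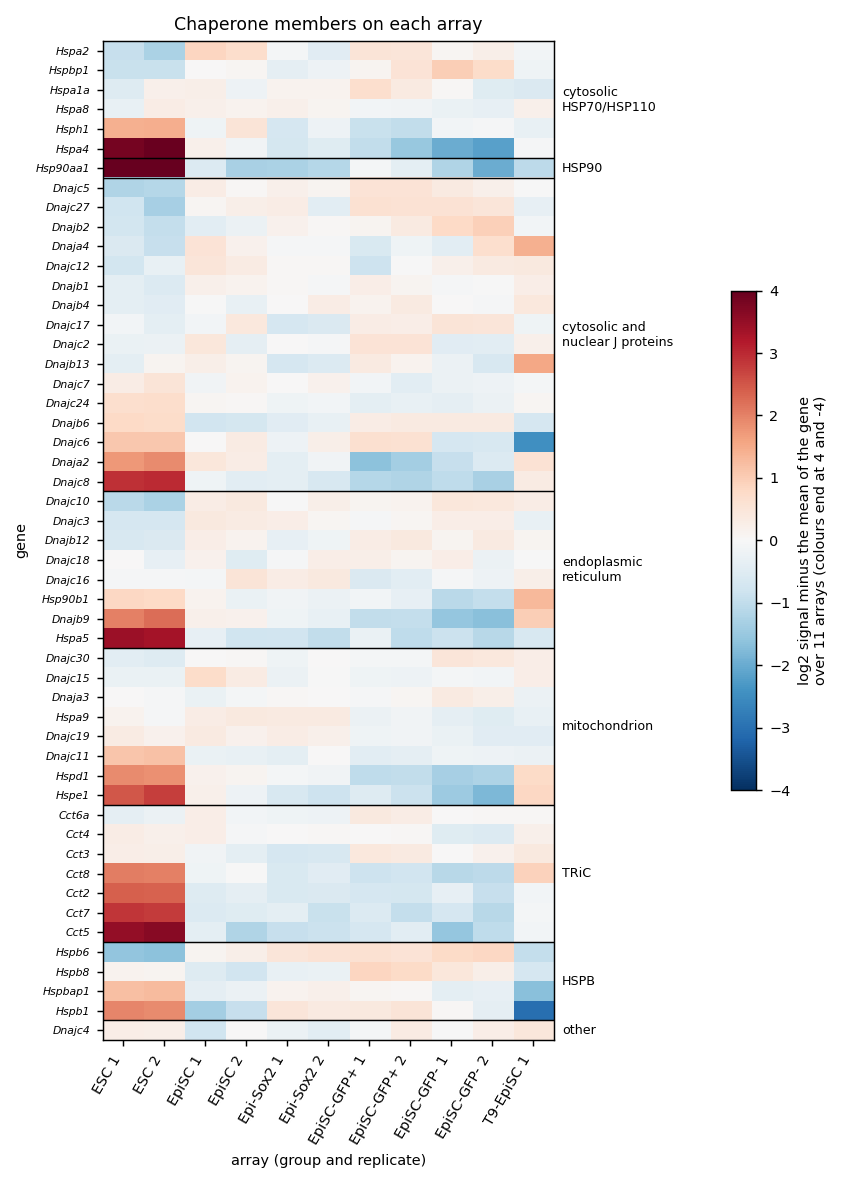
Level of each of the 51 members on each of the 11 arrays, as the normalized log2 signal minus the mean of the gene over all arrays. Rows are genes grouped by compartment, columns are arrays, red is above and blue below the mean of the gene. A block of genes in most compartments, led by Hsp90aa1, Hspa4, Cct5 and Hspa5, is red on both ESC arrays, and Hspb1 has its lowest level in T9-EpiSC.

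Among the cytosolic HSP70 genes the constitutive member did not pass the test, while both HSP110 exchange factors fell. Hspa8, the cognate HSP70 of unstressed cells, read 13.96 and 14.57 in ESC, 14.49 and 14.41 in EpiSC, 14.49 and 14.38 in Epi-Sox2, 14.15 and 14.13 in EpiSC-GFP+, 14.00 and 13.93 in EpiSC-GFP- and 14.49 in T9-EpiSC. The ESC arrays spanned those of EpiSC, and EpiSC differed from ESC by 0.18 ± 0.18 (adjusted p = 0.401). Hspa4, an HSP110 exchange factor, read 10.30 and 10.44 in ESC, 6.67 and 6.34 in EpiSC, 5.76 and 5.99 in Epi-Sox2, 5.50 and 4.95 in EpiSC-GFP+, 4.49 and 4.31 in EpiSC-GFP- and 6.44 in T9-EpiSC. Both ESC arrays were far above all others, and the difference of EpiSC from ESC was -3.86 ± 0.20 (adjusted p = 3.96e-07). Hsph1, an HSP110 gene that heat shock factors induce, read 11.24 and 11.27 in ESC, 9.62 and 10.31 in EpiSC, 9.14 and 9.60 in Epi-Sox2, 8.92 and 8.83 in EpiSC-GFP+, 9.70 and 9.76 in EpiSC-GFP- and 9.51 in T9-EpiSC. Here too the ESC arrays were highest without overlap, with a difference of -1.29 ± 0.22 (adjusted p = 0.000702) in EpiSC. The opposite direction held for Hspa2, an HSP70 gene best known from testis, which read 6.63 and 6.29 in ESC, 8.41 and 8.27 in EpiSC, 7.49 and 7.10 in Epi-Sox2, 8.07 and 8.03 in EpiSC-GFP+, 7.65 and 7.79 in EpiSC-GFP- and 7.45 in T9-EpiSC. It rose in EpiSC by 1.88 ± 0.17 (adjusted p = 9.58e-06), and both its probes were called higher. Hspbp1, which exchanges the nucleotide of HSP70, rose by 0.94 ± 0.16 (adjusted p = 0.000706), a call lost after median scaling. Hspa1a, the stress-inducible HSP70, stayed near the detection limit at 4.37 to 5.62 and was detected on 6 arrays.

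Hsp90aa1, the inducible cytosolic HSP90, fell further than any other member in EpiSC. It read 11.68 and 11.71 in ESC, 6.68 and 5.92 in EpiSC, 5.97 and 6.10 in Epi-Sox2, 7.15 and 6.85 in EpiSC-GFP+, 6.01 and 5.26 in EpiSC-GFP- and 6.19 in T9-EpiSC. The ESC arrays stood more than 4 log2 units above every other array, and EpiSC differed by -5.39 ± 0.28 (adjusted p = 4.32e-07). The other probe of the gene was not detected on any array and read 4.17 to 4.67, so that this fall rests on 1 probe. The second probe of Hspa4 was detected on 1 array and read 4.17 to 5.24.

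**Figure D2:**
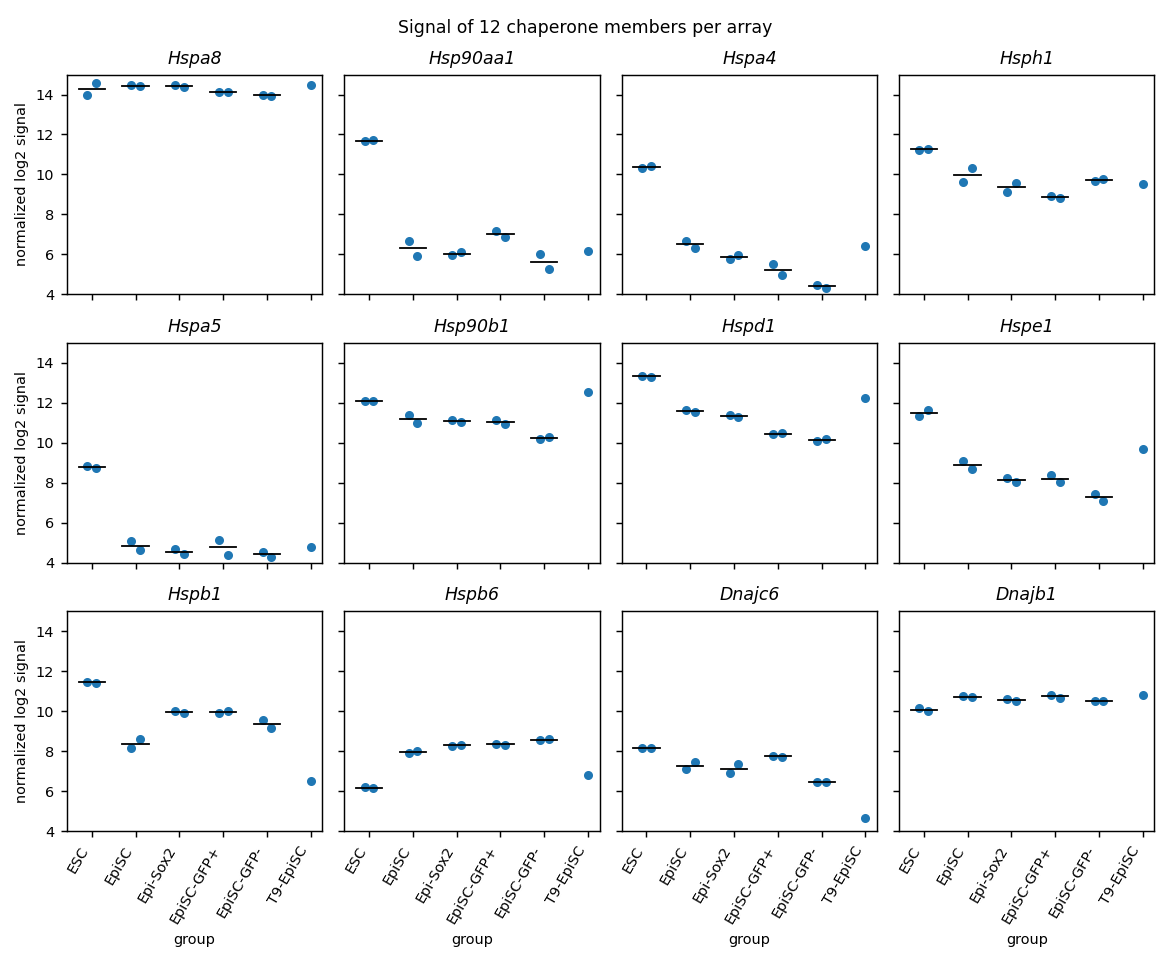
Normalized log2 signal of 12 members by group, with 1 point per array and a line at the mean of groups with 2 arrays. Hspa8 and Dnajb1 vary little, Hsp90aa1, Hspa4 and Hspa5 are high on the ESC arrays alone, Hspb6 is lowest there, and Hspb1 and Dnajc6 are lowest in T9-EpiSC.

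The J proteins of the cytosol and nucleus were split, with 6 of 16 members lower and 6 higher in EpiSC than in ESC and a median difference of 0.30. Each direction held 37.5% of them, against 26.0% lower and 40.2% higher over all features. Dnajc8, a J protein found with the splicing machinery, read 9.32 and 9.39 in ESC, 6.24 and 5.98 in EpiSC, 5.99 and 5.76 in Epi-Sox2, 5.27 and 5.20 in EpiSC-GFP+, 5.38 and 5.09 in EpiSC-GFP- and 6.72 in T9-EpiSC. All 9 arrays outside ESC were lower by over 2 log2 units, and EpiSC differed by -3.25 ± 0.15 (adjusted p = 2.39e-07). Dnajb6, which keeps polyglutamine proteins from aggregating, fell with both probes, with differences of -1.50 ± 0.12 (adjusted p = 4.08e-06) for the brightest and -2.35 ± 0.14 (adjusted p = 8.22e-07) for the other. Dnaja2, a J protein that works with Hspa8, fell by 1.43 ± 0.17 (adjusted p = 6.02e-05), and Dnajc6, the auxilin that strips clathrin from vesicles, fell by 0.90 ± 0.17 (adjusted p = 0.00102). For each of these genes both probes were called lower.

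Dnajb1, the stress-inducible J partner of HSP70, went the other way from Hsph1. It read 10.15 and 9.99 in ESC, 10.75 and 10.70 in EpiSC, 10.58 and 10.51 in Epi-Sox2, 10.81 and 10.66 in EpiSC-GFP+, 10.49 and 10.51 in EpiSC-GFP- and 10.82 in T9-EpiSC. Its ESC arrays were the lowest of the 11, by a small margin, and it rose in EpiSC by 0.65 ± 0.12 (adjusted p = 0.00104); that call was lost after cyclic loess and after median scaling. Dnajc5, the cysteine string protein of secretory vesicles, rose by 1.34 ± 0.13 (adjusted p = 1.76e-05), and Dnajc27, which joins a J domain to a small GTPase, by 1.22 ± 0.24 (adjusted p = 0.00145). Dnaja4 was not detected in ESC and was higher in EpiSC by at least 1.47-fold (adjusted p = 0.0115). Dnajb2 (0.50) and Dnajc12 (0.91) were the remaining rises, and Dnajc24 (-0.62) and Dnajc7 (-0.42) the remaining falls. The Dnajb2 call was not kept under both cyclic loess and median scaling. Those of Dnaja4, Dnajb2, Dnajc12 and Dnajc7 were lost in at least 1 run that left out an array. Dnajb4, Dnajb13, Dnajc2 and Dnajc17 did not pass.

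In the endoplasmic reticulum 3 of 8 members fell in EpiSC and 3 rose (37.5% each, against 26.0% and 40.2% of all features). The falls included both main chaperones of the compartment. Hspa5, which encodes BiP, had 1 probe on the array. It read 8.84 and 8.74 in ESC, 5.10 and 4.62 in EpiSC, 4.66 and 4.44 in Epi-Sox2, 5.14 and 4.40 in EpiSC-GFP+, 4.55 and 4.30 in EpiSC-GFP- and 4.78 in T9-EpiSC. It was high in ESC and at or near the detection limit on the other 9 arrays, being detected on 4 arrays in all. The difference of EpiSC from ESC was -3.93 ± 0.25 (adjusted p = 1.11e-06). It rests on this 1 probe, and how well the probe reads the transcript outside ESC was not tested. Hsp90b1, which encodes GRP94, read 12.10 and 12.07 in ESC, 11.39 and 11.00 in EpiSC, 11.12 and 11.03 in Epi-Sox2, 11.13 and 10.94 in EpiSC-GFP+, 10.19 and 10.31 in EpiSC-GFP- and 12.54 in T9-EpiSC. Both ESC arrays were above the other 8 duplicate arrays, with T9-EpiSC above them, and EpiSC fell by 0.88 ± 0.15 (adjusted p = 0.000662). Dnajb9, a J partner of BiP induced by the unfolded protein response, read 8.17 and 8.38 in ESC, 6.34 and 6.31 in EpiSC, 5.98 and 5.86 in Epi-Sox2, 5.18 and 5.21 in EpiSC-GFP+, 4.60 and 4.48 in EpiSC-GFP- and 7.12 in T9-EpiSC and fell by 1.95 ± 0.13 (adjusted p = 1.23e-06).

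The other 3 calls of that compartment were rises. Dnajc10, a J protein that reduces disulfide bonds, read 9.09 and 8.92 in ESC, 10.47 and 10.56 in EpiSC, 10.18 and 10.41 in Epi-Sox2, 10.30 and 10.33 in EpiSC-GFP+, 10.64 and 10.59 in EpiSC-GFP- and 10.49 in T9-EpiSC, with both ESC arrays lowest. It rose by 1.52 ± 0.13 (adjusted p = 7.31e-06). Dnajc3, a lumenal co-chaperone that also inhibits the kinase PERK, rose by 1.03 ± 0.12 (adjusted p = 5.79e-05), and Dnajb12, a membrane J protein of protein degradation, by 0.80 ± 0.13 (adjusted p = 0.00056). The Dnajb12 call was not kept under both cyclic loess and median scaling. Dnajc16 and Dnajc18 did not pass. Of these 8 genes 7 had a promoter window, and those of 3 held the endoplasmic reticulum stress element, spelled CCAAT, any 9 bases, CCACG and searched on both strands. It occurred in 0.119% of 32851 promoter windows of 300 bases (250 before and 50 after the annotated start) in RefSeq on GRCm38.p6. These 3 are printed 5′ to 3′ along the gene, with the element in capitals, because the same element stood before genes that fell and a gene that rose.
Hspa5, chr2:34771840-34772139: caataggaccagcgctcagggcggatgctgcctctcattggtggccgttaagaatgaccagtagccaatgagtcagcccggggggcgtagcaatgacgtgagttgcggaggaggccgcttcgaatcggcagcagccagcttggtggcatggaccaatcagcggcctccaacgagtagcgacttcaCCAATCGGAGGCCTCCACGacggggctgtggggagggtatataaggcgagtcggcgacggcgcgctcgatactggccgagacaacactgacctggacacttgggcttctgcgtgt
Hsp90b1, chr10:86705395-86705694: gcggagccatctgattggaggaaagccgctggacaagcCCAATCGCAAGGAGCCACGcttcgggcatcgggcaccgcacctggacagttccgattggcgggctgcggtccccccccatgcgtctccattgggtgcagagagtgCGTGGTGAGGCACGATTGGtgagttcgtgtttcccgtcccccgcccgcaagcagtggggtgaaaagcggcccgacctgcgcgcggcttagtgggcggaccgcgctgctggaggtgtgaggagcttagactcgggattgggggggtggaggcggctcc
Dnajc3, chr14:118937682-118937981: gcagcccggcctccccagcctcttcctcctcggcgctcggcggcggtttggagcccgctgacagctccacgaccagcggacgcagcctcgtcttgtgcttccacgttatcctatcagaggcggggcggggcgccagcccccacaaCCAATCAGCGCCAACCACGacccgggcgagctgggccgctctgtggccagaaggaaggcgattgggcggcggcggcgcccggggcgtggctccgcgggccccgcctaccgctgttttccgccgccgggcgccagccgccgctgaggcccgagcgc
The windows of Hspa5 and Dnajc3 are on the plus strand and that of Hsp90b1 is on the minus strand, where the second of its 2 matches is in reverse complement. A match is a run of letters and not a measured binding site.

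The mitochondrial folding pair fell together. Hspd1, which encodes HSP60, read 13.36 and 13.30 in ESC, 11.63 and 11.56 in EpiSC, 11.39 and 11.31 in Epi-Sox2, 10.45 and 10.47 in EpiSC-GFP+, 10.11 and 10.21 in EpiSC-GFP- and 12.22 in T9-EpiSC with its brightest probe. The ESC arrays were highest without overlap and the E3 fractions lowest, and EpiSC differed from ESC by -1.73 ± 0.11 (adjusted p = 1.37e-06). Hspe1, which encodes the lid protein HSP10, read 11.36 and 11.66 in ESC, 9.08 and 8.68 in EpiSC, 8.26 and 8.05 in Epi-Sox2, 8.38 and 8.03 in EpiSC-GFP+, 7.45 and 7.08 in EpiSC-GFP- and 9.71 in T9-EpiSC. Its groups stood in the same order except that Epi-Sox2 and EpiSC-GFP+ overlapped, and EpiSC differed by -2.63 ± 0.20 (adjusted p = 3.85e-06). The genes lie head to head on chromosome 1, and their RefSeq promoter windows, chr1:55087883-55088182 on the minus strand for Hspd1 and chr1:55087898-55088197 on the plus strand for Hspe1, overlap by 285 bases. The shared stretch is printed as the Hspe1 window because it held 2 overlapping heat shock elements, in capitals. The element was searched as GAA, any 2 bases, TTC, any 2 bases, GAA and its reverse complement, and occurred in 0.603% of the promoter windows.
Hspe1, chr1:55087898-55088197: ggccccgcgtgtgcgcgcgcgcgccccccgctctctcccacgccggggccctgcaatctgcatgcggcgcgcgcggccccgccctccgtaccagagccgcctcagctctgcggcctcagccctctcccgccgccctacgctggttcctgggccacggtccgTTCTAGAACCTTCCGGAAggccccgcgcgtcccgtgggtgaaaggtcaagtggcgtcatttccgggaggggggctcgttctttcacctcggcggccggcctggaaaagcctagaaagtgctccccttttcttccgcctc
Windows of Dnajb6 and Hsph1 were the only other ones with this element, of 41 members with a window. Dnajb1 had a window and no match in it.

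**Figure D3:**
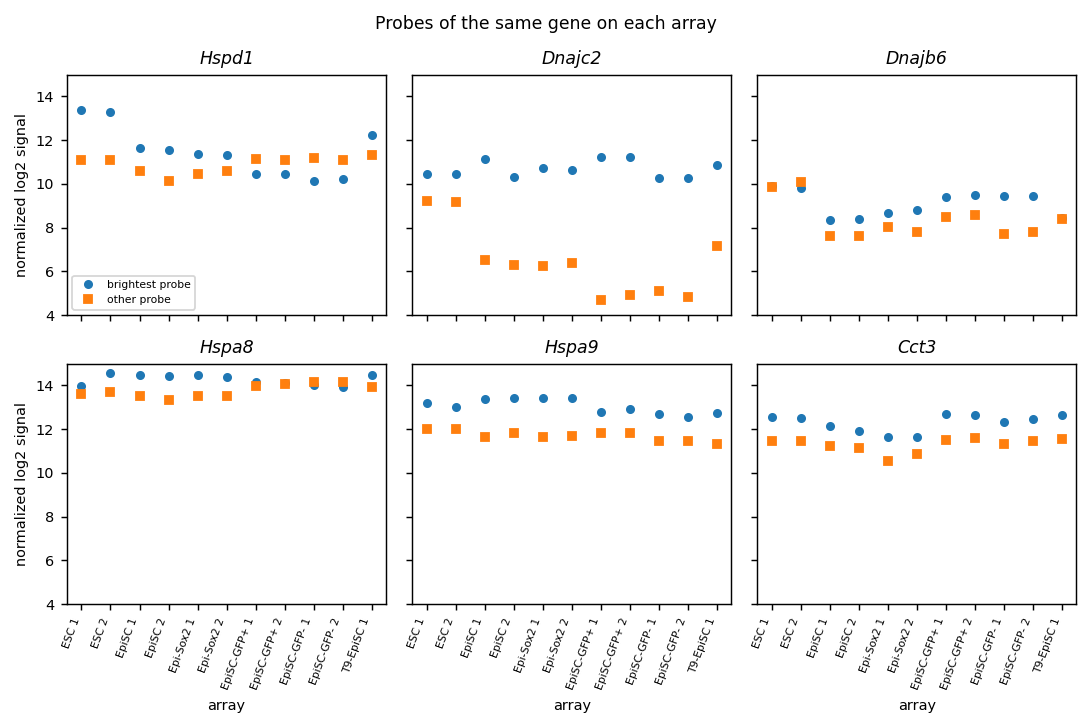
Normalized log2 signal on each of the 11 arrays for the brightest probe (circles) and the other detected probe (squares) of 6 genes. The probes of Hspd1 and Dnajc2 part between ESC and the E3 fractions, while those of Cct3 run close to parallel.

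The other probe of Hspd1 differed in pattern. It read 11.11 and 11.09 in ESC, 10.61 and 10.14 in EpiSC, 10.44 and 10.57 in Epi-Sox2, 11.12 and 11.11 in EpiSC-GFP+, 11.20 and 11.11 in EpiSC-GFP- and 11.33 in T9-EpiSC, so that the E3 fractions were level with ESC and only the GOF18 groups were lower. EpiSC differed from ESC by -0.73 ± 0.16 (adjusted p = 0.00292) with this probe, and EpiSC-GFP+ by 0.02 ± 0.16 (adjusted p = 0.937), against -2.87 ± 0.11 (adjusted p = 8.56e-08) for EpiSC-GFP+ with the brightest probe. In the E3 fractions a fall of Hspd1 was called with 1 probe and not with the other.

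Other mitochondrial members varied less. Hspa9, the HSP70 of the mitochondrial matrix, read 13.19 and 13.01 in ESC, 13.36 and 13.43 in EpiSC, 13.41 and 13.41 in Epi-Sox2, 12.80 and 12.91 in EpiSC-GFP+, 12.68 and 12.58 in EpiSC-GFP- and 12.74 in T9-EpiSC, all within 0.85 log2 units, and EpiSC differed from ESC by 0.30 ± 0.12 (adjusted p = 0.0549), which did not pass. Dnajc11, a J protein of the organelle's membranes, was detected in ESC alone and was at least 1.85-fold lower in EpiSC (adjusted p = 2.41e-05). It passed the detection filter through its ESC arrays alone, so that the filter itself favoured a fall. Dnajc15, a J protein of the import machinery, rose by 0.79 ± 0.15 (adjusted p = 0.00112) and Dnajc30 by 0.50 ± 0.12 (adjusted p = 0.00474), and neither call was kept after median scaling. Dnaja3 and Dnajc19 did not pass.

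TRiC is built from equal parts of its subunits, yet the probes of its 7 members did not move by equal amounts. In EpiSC 5 fell, none rose and 2 did not pass, with a median difference of -2.14. The share called was 71.4%, all lower, against 66.3% of all features called and 26.0% lower. Cct5 read 9.38 and 9.50 in ESC, 5.45 and 4.66 in EpiSC, 4.93 and 5.0 in Epi-Sox2, 5.20 and 5.43 in EpiSC-GFP+, 4.32 and 4.85 in EpiSC-GFP- and 5.73 in T9-EpiSC. Cct7 read 8.30 and 8.23 in ESC, 4.91 and 4.94 in EpiSC, 5.05 and 4.55 in Epi-Sox2, 4.89 and 4.51 in EpiSC-GFP+, 4.77 and 4.34 in EpiSC-GFP- and 5.38 in T9-EpiSC. Cct2 read 7.51 and 7.51 in ESC, 4.61 and 4.77 in EpiSC, 4.53 and 4.56 in Epi-Sox2, 4.47 and 4.44 in EpiSC-GFP+, 4.80 and 4.22 in EpiSC-GFP- and 5.03 in T9-EpiSC. These 3 probes were high in ESC and close to the detection limit on every other array. Each of these genes had 1 probe, and how well it reads the transcript outside ESC was not tested. Cct5 in EpiSC fell by 4.38 ± 0.25 (adjusted p = 7.61e-07) and Cct7 fell by 3.34 ± 0.21 (adjusted p = 1.08e-06). Cct2 was not detected there and was at least 6.02-fold lower (adjusted p = 1.14e-06). It reached the detection filter only with its ESC arrays, so that the filter itself favoured a fall.

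Cct8 took a middle course. It read 12.73 and 12.70 in ESC, 10.49 and 10.67 in EpiSC, 10.07 and 10.23 in Epi-Sox2, 9.85 and 9.90 in EpiSC-GFP+, 9.57 and 9.62 in EpiSC-GFP- and 11.61 in T9-EpiSC, with ESC highest and T9-EpiSC next, and in EpiSC fell by 2.14 ± 0.12 (adjusted p = 7.15e-07). Cct3 read 12.57 and 12.52 in ESC, 12.15 and 11.90 in EpiSC, 11.63 and 11.64 in Epi-Sox2, 12.70 and 12.65 in EpiSC-GFP+, 12.32 and 12.46 in EpiSC-GFP- and 12.67 in T9-EpiSC. Its ESC arrays lay within the range of the E3 fractions, and the fall in EpiSC was -0.52 ± 0.13 (adjusted p = 0.0057), which its other probe did not pass at -0.26 ± 0.14 (adjusted p = 0.137). Cct4 read 12.51 and 12.43 in ESC, 12.50 and 12.18 in EpiSC, 12.25 and 12.27 in Epi-Sox2, 12.23 and 12.27 in EpiSC-GFP+, 11.74 and 11.67 in EpiSC-GFP- and 12.43 in T9-EpiSC and differed by -0.13 ± 0.13 (adjusted p = 0.4). Cct6a was lowest in ESC, at 12.80 and 12.91 against 13.40 and 13.02 in EpiSC, with a difference of 0.36 ± 0.14 (adjusted p = 0.0519); its sign turned after cyclic loess (-0.04) and median scaling (-0.18). Over the whole array, 99 of 25697 probes exceeded 8 in each ESC array while staying below 6 on all 9 others. Among the 100 chaperone probes there were 3, those of Cct5, Cct7 and Hspa5.

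**Figure D4:**
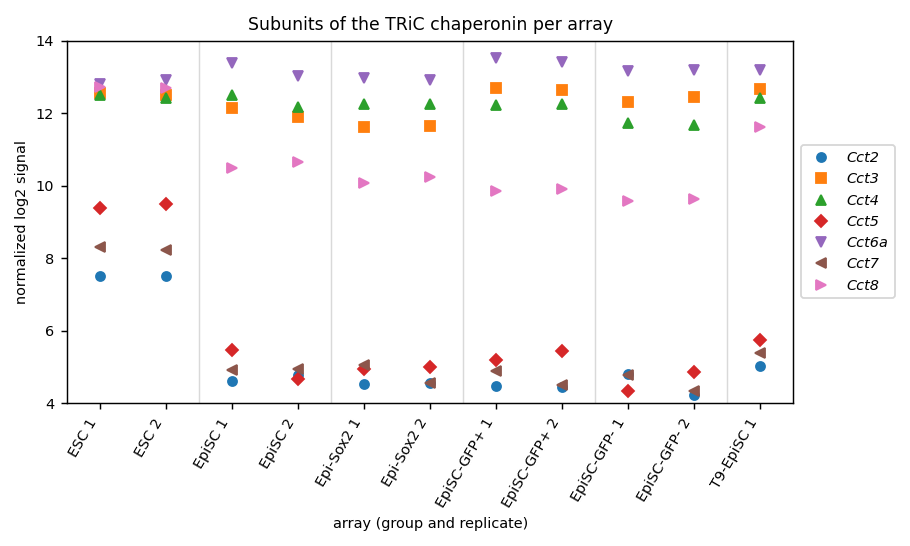
Normalized log2 signal of the 7 TRiC subunits on each of the 11 arrays, with vertical lines between groups. Cct2, Cct5 and Cct7 are far higher on the ESC arrays than elsewhere, Cct8 is intermediate, and Cct3, Cct4 and Cct6a stay between 11.63 and 13.54 on all arrays.

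All 4 genes named for small heat shock proteins were called between EpiSC and ESC, 3 lower and 1 higher. Over all features 66.3% were called, so that 4 calls of 4 do not set this small list apart. Hspb1, the small heat shock protein HSP27 that stabilizes actin and holds unfolded clients, read 11.46 and 11.41 in ESC, 8.16 and 8.59 in EpiSC, 10.00 and 9.88 in Epi-Sox2, 9.89 and 10.02 in EpiSC-GFP+, 9.57 and 9.17 in EpiSC-GFP- and 6.48 in T9-EpiSC. ESC was highest, EpiSC was the lowest of the duplicate groups and T9-EpiSC was lower still. The difference of EpiSC from ESC was -3.06 ± 0.18 (adjusted p = 7.73e-07). Hspbap1, which encodes a protein that binds Hspb1 and is itself no small heat shock protein, read 10.99 and 11.04 in ESC, 9.43 and 9.56 in EpiSC, 9.93 and 10.00 in Epi-Sox2, 9.87 and 9.81 in EpiSC-GFP+, 9.38 and 9.45 in EpiSC-GFP- and 8.12 in T9-EpiSC and fell by 1.53 ± 0.12 (adjusted p = 3.41e-06). Hspb8, a partner of Bag3 in selective autophagy, fell by 0.77 ± 0.13 (adjusted p = 0.000684). Hspb6, a small heat shock protein of muscle, read 6.19 and 6.13 in ESC, 7.89 and 8.0 in EpiSC, 8.25 and 8.33 in Epi-Sox2, 8.36 and 8.31 in EpiSC-GFP+, 8.53 and 8.59 in EpiSC-GFP- and 6.80 in T9-EpiSC. It was lowest in ESC without overlap and rose by 1.78 ± 0.11 (adjusted p = 1.24e-06).

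Sox2 overexpression in GOF18 cells was addressed by Epi-Sox2 against EpiSC. The labels name conditioned medium for Epi-Sox2 and no medium for EpiSC, so that transgene and medium cannot be told apart. The summed fibroblast signal was also higher in Epi-Sox2, but of the 10 fibroblast genes only Acta2 was called higher. Vim was called lower and 8 did not pass. Of the 51 members 2 rose and 8 fell, 3.92% and 15.7% of them, against 10.5% and 9.16% of all features (19.6% called). Hspb1 had the largest difference, from 8.16 and 8.59 in EpiSC to 10.00 and 9.88 in Epi-Sox2, which did not overlap, and rose by 1.57 ± 0.18 (adjusted p = 0.000699). Hspbap1 rose by 0.47 ± 0.12 (adjusted p = 0.022). Hspa2 fell from 8.41 and 8.27 to 7.49 and 7.10, a difference of -1.04 ± 0.17 (adjusted p = 0.00364), and its other probe fell as well. The remaining falls were Hspe1 at -0.72 ± 0.20 (adjusted p = 0.0359), Cct8 at -0.43 ± 0.12 (adjusted p = 0.0377), Dnaja2 at -0.64 ± 0.17 (adjusted p = 0.0299), Dnajc15 at -0.65 ± 0.15 (adjusted p = 0.0164), Dnajc17 at -0.78 ± 0.18 (adjusted p = 0.0171) and Dnajb12 at -0.46 ± 0.13 (adjusted p = 0.0396). Dnajb13, a gene of sperm flagella, was not detected in Epi-Sox2 and was at least 1.36-fold lower.

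Only Hspb1 and Hspa2 stayed called when any 1 of the 11 arrays was left out. The number of rises was 2, and was 1 without EpiSC replicate 1, Epi-Sox2 replicate 1 or Epi-Sox2 replicate 2. The number of falls was 8, and was 1 without Epi-Sox2 replicate 1, 2 without Epi-Sox2 replicate 2, and 4 without EpiSC replicate 1, ESC replicate 1 or ESC replicate 2. Cyclic loess gave 4 rises and 6 falls and median scaling 1 and 6. Hsp90aa1 at -0.27 ± 0.28, Hsp90b1 at -0.12 ± 0.15, Hspd1 at -0.24 ± 0.11 and Hspa8 at -0.01 ± 0.18 did not pass, and Hspa5 was not detected in Epi-Sox2.

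The sort of E3 cells by the Oct4 reporter was addressed by EpiSC-GFP+ against EpiSC-GFP-. Of the 51 members 12 rose and 5 fell in EpiSC-GFP+, 23.5% and 9.80% of them, against 13.2% and 12.9% of all features (26.1% called), with a median difference of 0.17 over the members and -0.01 over all. Hsp90aa1 read 7.15 and 6.85 in EpiSC-GFP+ and 6.01 and 5.26 in EpiSC-GFP-, and rose by 1.36 ± 0.28 (adjusted p = 0.00883). It was detected on only 1 EpiSC-GFP- array, and 5.26 lay below the lowest detected level of its array, 5.46. Dnajc6 read 7.76 and 7.72 against 6.44 and 6.45 and rose by 1.30 ± 0.17 (adjusted p = 0.000884), and its other probe, not detected in EpiSC-GFP-, was also called higher. Hsp90b1 read 11.13 and 10.94 against 10.19 and 10.31 and rose by 0.79 ± 0.15 (adjusted p = 0.00627). The fractions did not overlap in any of these genes. The mitochondrial Hspe1 rose by 0.94 ± 0.20 (adjusted p = 0.0102) and Dnajc2, a ribosome-bound J protein, by 0.98 ± 0.22 (adjusted p = 0.0132). The other probe of Dnajc2 was not detected in either fraction.

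Smaller rises were those of Hspb1 at 0.59 ± 0.18 (adjusted p = 0.0407), Cct4 at 0.54 ± 0.13 (adjusted p = 0.0173), Hspb8 at 0.48 ± 0.13 (adjusted p = 0.027) and Hspbap1 at 0.43 ± 0.12 (adjusted p = 0.0252). Dnajb9 (adjusted p = 0.00619), Hspa4 (adjusted p = 0.0164) and Dnajb13 (adjusted p = 0.031) were also called higher. They were not detected in EpiSC-GFP- and read close to the detection limit in EpiSC-GFP+, at 5.18 and 5.21, 5.50 and 4.95 and 5.52 and 5.28, so no fold is given. Cct4 was the 1 TRiC subunit of 7 that passed. Hsph1 fell by 0.86 ± 0.22 (adjusted p = 0.0217) in EpiSC-GFP+, against the direction of Hsp90aa1. Dnajb2, a J protein studied in neurons, fell by 0.65 ± 0.15 (adjusted p = 0.0138), Dnajc30 fell by 0.54 ± 0.12 (adjusted p = 0.0115) and Hspbp1 fell by 0.53 ± 0.16 (adjusted p = 0.0402). Dnaja2 was also called lower. It was not detected in EpiSC-GFP+ and was detected on only 1 EpiSC-GFP- array, at 5.10 and 5.48 in that fraction, so no fold is given. The other probe of Dnaja2 was not detected in either fraction.

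Dnajc6, Hsp90b1 and Dnajb9 were called in all runs that left out 1 array, and none of the 5 falls was. There were 12 rises with all arrays, 3 without EpiSC-GFP+ replicate 1 and 6 without EpiSC-GFP+ replicate 2 or EpiSC-GFP- replicate 2. There were 5 falls with all arrays, 0 without EpiSC-GFP+ replicate 1, 1 without EpiSC-GFP- replicate 2 and 3 without EpiSC-GFP- replicate 1. Median scaling gave 18 rises and 0 falls, with the median of all features moved from -0.01 to 0.23, and cyclic loess gave 11 and 4. EpiSC-GFP- also had the lowest intensities and the fewest detected probes, and the part of this in the difference was not tested.

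**Figure D5:**
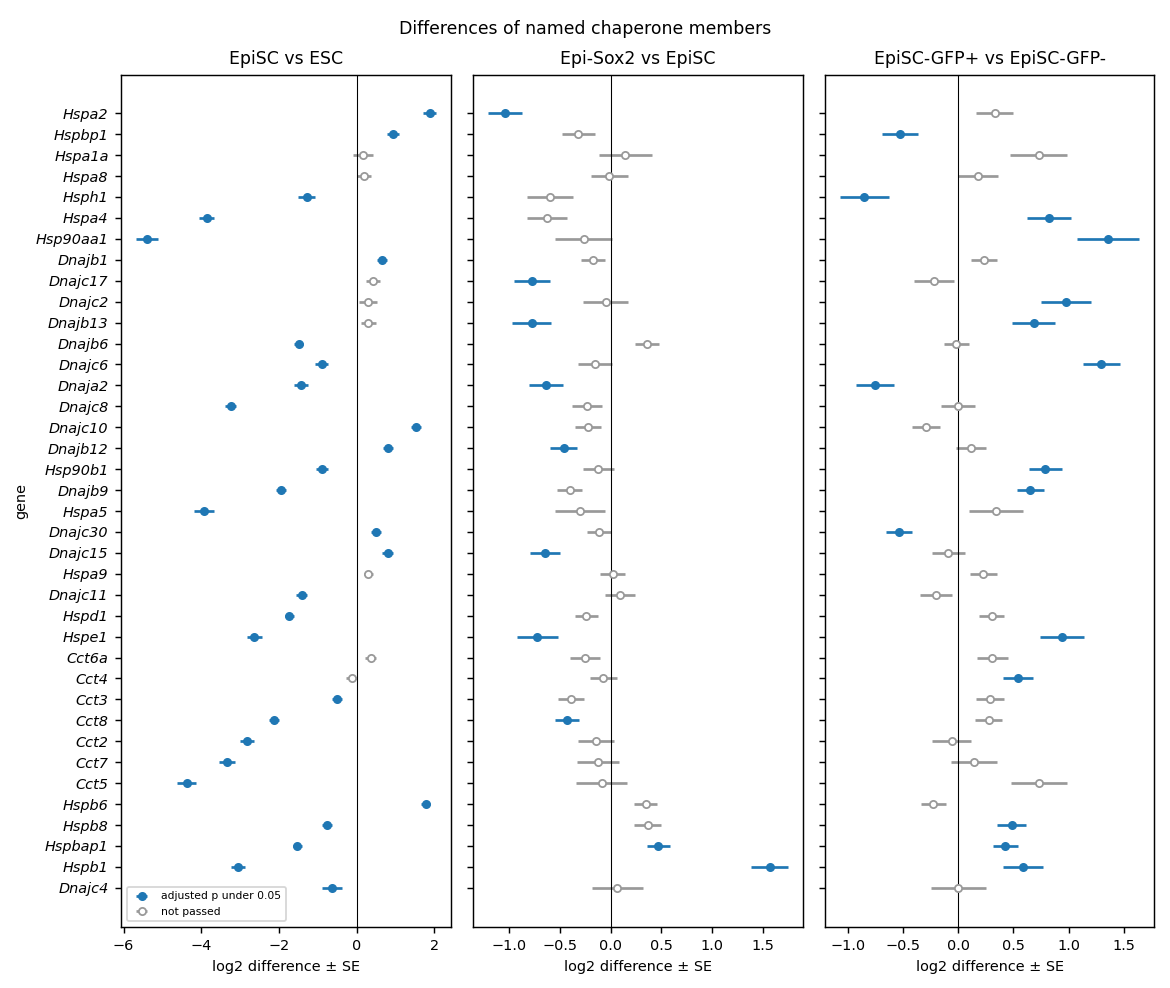
Log2 differences with standard errors for the named members in EpiSC against ESC, Epi-Sox2 against EpiSC and EpiSC-GFP+ against EpiSC-GFP-, with 2 arrays per group and a scale of its own in each panel. Filled points passed an adjusted p under 0.05. The falls against ESC reach -5.39 in Hsp90aa1, and the other comparisons stay within 1.6 log2 units of 0.

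The 3 other groups with replicates were also set against the same ESC arrays, so that their differences are not independent of those of EpiSC. In Epi-Sox2 13 members rose and 22 fell (40.2% and 25.3% of all features, 65.5% called), in EpiSC-GFP+ 17 rose and 22 fell (41.4% and 27.0%, 68.3% called), and in EpiSC-GFP- 16 rose and 24 fell (42.5% and 29.6%, 72.0% called). Median scaling left 7, 6 and 6 rises in these groups, in the same order, and leaving out Epi-Sox2 replicate 2 left 8 in Epi-Sox2. Hsp90aa1 differed by -5.66, -4.69 and -6.06 in these groups, beside -5.39 in EpiSC. Hspa4 differed by -4.49 in Epi-Sox2 and -5.14 in EpiSC-GFP+, and was at least 31.3-fold lower in EpiSC-GFP-, where it was not detected. Hspe1 differed by -3.35, -3.31 and -4.25, beside -2.63 in EpiSC. Each of these values passed.

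Some members passed in a sorted fraction and not in GOF18 EpiSC, and the difference between those groups was not tested. Cct4 in EpiSC-GFP- fell by 0.76 ± 0.13 (adjusted p = 0.000579), and Hspa9 fell by 0.47 ± 0.12 (adjusted p = 0.00666) there. Cct6a rose in EpiSC-GFP+ by 0.63 ± 0.14 (adjusted p = 0.0033), a call lost after cyclic loess or median scaling. Hspb8 rose in EpiSC-GFP+ by 0.70 ± 0.13 (adjusted p = 0.00113), with a negative sign after median scaling (-0.035), while it fell in EpiSC. Hspb6 differed by 2.13, 2.17 and 2.40 in the same order of groups, and Dnajc10 by 1.29, 1.31 and 1.61, all of them calls. Hspbp1, the HSP70 exchange factor, reached 1.74 ± 0.16 (adjusted p = 8.77e-06) in EpiSC-GFP-.

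Where a gene had several detected probes they could be set side by side, which was so for 11 members. In EpiSC against ESC all probes fell for 4 of them (Dnaja2, Dnajb6, Dnajc6 and Hspd1), all rose for Hspa2, none passed for Hspa8 and Hspa9, and only some passed for the other 4 (Cct3, Dnajc2, Dnajc10 and Dnajc16). Dnajc2 showed the widest split. Its brightest probe read 10.43 and 10.47 in ESC, 11.16 and 10.32 in EpiSC, 10.72 and 10.66 in Epi-Sox2, 11.24 and 11.23 in EpiSC-GFP+, 10.26 and 10.27 in EpiSC-GFP- and 10.88 in T9-EpiSC, and its other probe 9.20 and 9.17 in ESC, 6.50 and 6.28 in EpiSC, 6.23 and 6.36 in Epi-Sox2, 4.68 and 4.93 in EpiSC-GFP+, 5.09 and 4.83 in EpiSC-GFP- and 7.18 in T9-EpiSC. The brightest probe stayed between 10.26 and 11.24, while the other was highest in ESC and was not detected in either E3 fraction. In EpiSC-GFP+ against ESC they passed in opposite directions, higher by 0.79 ± 0.22 (adjusted p = 0.0109) for the brightest probe and lower for the other (adjusted p = 4.34e-08). The other probe of Hspa8 read 13.62 and 13.69 in ESC, 13.52 and 13.33 in EpiSC, 13.51 and 13.54 in Epi-Sox2, 13.98 and 14.07 in EpiSC-GFP+, 14.15 and 14.15 in EpiSC-GFP- and 13.91 in T9-EpiSC, highest in the E3 fractions, and rose in EpiSC-GFP- against ESC by 0.50 ± 0.12 (adjusted p = 0.00503).

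T9-EpiSC had 1 array, so its values have no replicate check and no test. Set against the mean of the 4 other epiblast stem cell groups, 9 members were higher by at least 1 log2 unit (17.6% of members, against 8.79% of all features) and 4 were lower (7.84%, against 7.55%). Without background correction both counts were 4. It lay above all 8 arrays of those groups for 16 members (31.4%, against 21.7%) and below them for 8 (15.7%, against 24.3%). Chaperones of the endoplasmic reticulum and mitochondrion were among the higher ones. Hsp90b1 read 12.54 against 10.19 to 11.39 on the 8 arrays, above the ESC mean of 12.08 as well. Dnajb9 read 7.12 against 4.48 to 6.34, Hspd1 12.22 against 10.11 to 11.63 and Hspe1 9.71 against 7.08 to 9.08. With the other probe of Hspd1 the margin was smaller, at 11.33 against 10.14 to 11.20. Hspa5 read 4.78 there, within the range of the 8 arrays.

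In the cytosol of T9-EpiSC, Cct8 read 11.61 against 9.57 to 10.67 and Dnajb13 6.69 against 4.48 to 5.52. Dnaja4 read 6.64, Dnaja2 6.61 and Dnajc8 6.72, each above the 8 arrays. The 4 lower members were Hspb1 at 6.48 against 8.16 to 10.02, Dnajc6 at 4.64 against 6.44 to 7.76, Hspbap1 at 8.12 against 9.38 to 10.00 and Hspb6 at 6.80 against 7.89 to 8.59. Dnajc6 was not detected there. Of the fibroblast genes 8 of 10 were detected in T9-EpiSC, and the 4 tested endoderm genes, Sox17 and Foxa2 among them, summed to 352.4 signal units against 86.3 to 170.0 elsewhere with 4 of 4 detected. The part of such cells in these values was not tested.

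Genes that work with the members were listed by role. Of 18 tested heat shock factors and cytosolic co-chaperones 8 fell and 4 rose in EpiSC against ESC, so that 66.7% were called against 66.3% of all features (26.0% lower and 40.2% higher). Cacybp, which links Hsp90 and ubiquitin ligases, read 10.76 and 10.64 in ESC, 4.93 and 5.52 in EpiSC, 4.91 and 5.02 in Epi-Sox2, 4.44 and 4.89 in EpiSC-GFP+, 4.51 and 4.41 in EpiSC-GFP- and 5.31 in T9-EpiSC and fell by 5.47 ± 0.21 (adjusted p = 8.57e-08). St13, the HSP70-interacting protein Hip, read 10.78 and 10.70 in ESC, 5.90 and 6.23 in EpiSC, 5.67 and 6.05 in Epi-Sox2, 5.61 and 4.96 in EpiSC-GFP+, 5.54 and 5.66 in EpiSC-GFP- and 7.18 in T9-EpiSC and fell by 4.68 ± 0.22 (adjusted p = 2.57e-07). Both had the pattern of Hsp90aa1, high on the ESC arrays and low on the other 9. Of 15 tested genes of the unfolded protein response and of folding in the endoplasmic reticulum 1 fell and 5 rose (40.0% called). Atf4, a transcription factor of that response, fell by 1.26 ± 0.13 (adjusted p = 2.6e-05), and Sil1, the nucleotide exchange factor of BiP, was not detected in ESC and was at least 2.3-fold higher. Of these 15 partners 9 did not pass, and the part of this response in the falls of Hspa5 and Hsp90b1 was not tested.

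Among 8 tested genes of mitochondrial folding and proteolysis 4 fell, led by the protease subunit Clpx at -1.98 ± 0.19 (adjusted p = 1.35e-05) and by the J protein Hscb, which was at least 2.21-fold lower and not detected in EpiSC, and 2 rose (75.0% called). Clpx did not pass with its other probe (0.019), and Hscb passed the detection filter through its ESC arrays alone, which favoured a fall. Of the prefoldin genes and Tcp1, the remaining TRiC subunit, 5 were tested, of which 2 fell and 2 rose (80.0% called). Over all features 66.3% were called, 26.0% lower and 40.2% higher. The prefoldin subunit Vbp1 read 10.04 and 10.23 in ESC, 7.19 and 7.04 in EpiSC, 6.53 and 6.34 in Epi-Sox2, 5.51 and 6.30 in EpiSC-GFP+, 4.65 and 5.47 in EpiSC-GFP- and 8.12 in T9-EpiSC and fell by 3.02 ± 0.30 (adjusted p = 1.75e-05), whereas the prefoldin subunit Pfdn2 read 10.57 and 10.41 in ESC, 11.84 and 11.88 in EpiSC, 11.73 and 11.82 in Epi-Sox2, 12.93 and 12.90 in EpiSC-GFP+, 12.90 and 12.91 in EpiSC-GFP- and 11.44 in T9-EpiSC and rose by 1.37 ± 0.12 (adjusted p = 7.14e-06).

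In Epi-Sox2 against EpiSC the same lists gave 3 falls and 0 rises of 18, 2 of each of 15, 1 rise of 8 and no call of 5, which is 16.7%, 26.7%, 12.5% and 0% called against 19.6% of all features. Ahsa1, which activates the ATPase of HSP90, fell by 0.66 ± 0.16 (adjusted p = 0.0183) and Chordc1, another HSP90 partner, fell by 0.58 ± 0.14 (adjusted p = 0.0193). Ddit3, a transcription factor of prolonged endoplasmic reticulum stress, rose from 5.52 and 5.79 to 7.23 and 7.23, by 1.58 ± 0.18 (adjusted p = 0.000747), Calr, the lectin chaperone calreticulin, by 0.65 ± 0.18 (adjusted p = 0.0378) and the mitochondrial protease Spg7 by 0.67 ± 0.18 (adjusted p = 0.029). In EpiSC-GFP+ against EpiSC-GFP- they gave 2 falls of 18, 2 rises and 1 fall of 15, 1 of each of 8 and 1 rise of 5, which is 11.1%, 20.0%, 25.0% and 20.0% called against 26.1% of all features. Calr rose by 0.63 ± 0.18 (adjusted p = 0.0342), Spg7 by 0.68 ± 0.18 (adjusted p = 0.0215) and Tcp1 by 0.44 ± 0.14 (adjusted p = 0.0438). Sil1 fell by 0.65 ± 0.18 (adjusted p = 0.0314), Grpel1, the exchange factor of Hspa9, fell by 0.59 ± 0.14 (adjusted p = 0.014), Bag5, an HSP70 exchange factor, fell by 0.45 ± 0.14 (adjusted p = 0.0414) and Cdc37, which brings kinases to HSP90, fell by 0.52 ± 0.16 (adjusted p = 0.0423). When 1 array was left out, Ddit3 kept its call in every run, while Calr, Spg7, Ahsa1, Chordc1, Tcp1, Sil1, Grpel1, Bag5 and Cdc37 lost theirs in at least 1 run.

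The 22 genes with a probe that did not pass the detection filter were Dnaja1 with 2 probes, Dnajb3, Dnajb5, Dnajb7, Dnajb8, Dnajc5b, Dnajc5g and Dnajc9 of the cytosolic J proteins, Hspa12a, Hspa12b, Hspa14, Hspa1l and Hspa4l of the HSP70 and HSP110 genes, Dnajc1, Dnajc14 and Hspa13 of the endoplasmic reticulum, Dnajc28 of the mitochondrion, Hspb2, Hspb3 and Hspb7 of the small heat shock proteins, and Cct6b and Cct8l1. Dnajb8, Dnajc28 and Hspa12a were detected on 1 array each and the others on none, and the highest level was 5.29, in Hspb2. Several of them, such as Dnajb3, Cct6b and Hspa1l, are known mainly from testis. Dnaja1, a widely expressed J protein, reached 5.03, and nothing about its transcript follows from probes that were not detected. Hsp90ab1, the constitutive cytosolic HSP90, and Hspa1b had no annotated probe among those analysed here.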

How the data were processed

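Total RNA of 11 samples was amplified and hybridized to Illumina MouseRef-8 v2 bead arrays, per the labels' protocols. The authors deposited non-normalized bead intensity values for 25697 probes, with a detection p-value for each probe and array given per the file headers. They also deposited log2 values, whose columns all had a median of 2.64 and ranked probes as the intensities did (rank r of 1). Their background step and offset are unknown, and they served as an alternative. BeadStudio 3.2, RMA and lumi are named in the submitters' processing notes, with no order.

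Intensities were background-corrected by normexp on the detection p-values, with an offset of 16, quantile normalized and log2 transformed (neqc, limma 3.58.1, R 4.3.3). Probes detected at p under 0.01 on 2 or more arrays were kept (13048), and the brightest per gene gave 9620 features. Symbols were those of RefSeq where the Entrez number of the platform annotation was found there (23962 probes), and otherwise those of the platform annotation. In this way 23978 probes had 1 symbol, 0 had several and 1719 had none. A linear model with 1 mean per group was fitted to all 11 arrays (5 residual and 4.21 prior degrees of freedom, empirical Bayes), with Benjamini-Hochberg adjusted p under 0.05. Where a probe was detected on neither array of a group, a lower bound of the fold is given in place of the difference. The bound is left out for genes of the sorted fractions whose higher fraction read close to the detection limit. The number of arrays limits the precision. The method was tested on simulated data.

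Genes were named by rule, as the 3 largest called differences per compartment and comparison, a set of main chaperones and, per partner list, the 2 largest called. Other called members were named to complete the counts of EpiSC against ESC, Epi-Sox2 against EpiSC and EpiSC-GFP+ against EpiSC-GFP-. Members, lists and rules were chosen with earlier results of these data known. Replicate numbers did not pair samples (correlations of deviations from -0.02 to 0.08). Alternatives were the offset, the background step, the scaling, the authors' values, the detection filter, the probe, the groups fitted, an intensity trend, a fold threshold, a replicate block and leaving out each array.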

Additional observations from a re-analysis of the deposited data

How the results depend on the processing

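Each array in turn was left out, and 12 other settings were tried. Leaving out 1 array gave 13 to 15 rises and 22 to 24 falls of members in EpiSC against ESC, 1 to 2 and 1 to 8 in Epi-Sox2 against EpiSC, 3 to 13 and 0 to 6 in EpiSC-GFP+ against EpiSC-GFP-, 8 to 15 and 21 to 24 in Epi-Sox2 against ESC, 14 to 17 and 19 to 23 in EpiSC-GFP+ against ESC, and 12 to 17 and 23 to 24 in EpiSC-GFP- against ESC. Against ESC, median scaling cut the rises to 8 in EpiSC, 7 in Epi-Sox2 and 6 in either sorted fraction. It left 1 rise in Epi-Sox2 against EpiSC, and gave 0 falls between the sorted fractions. It moved the share of higher calls over all features in EpiSC against ESC from 60.7% to 39.9%, and cyclic loess moved it to 49.0%. Between the sorted fractions median scaling moved that share from 50.5% to 91.6%. A threshold of 1 log2 unit left 4 rises in Epi-Sox2 and 7 in each other group against ESC, 1 rise and 1 fall in Epi-Sox2 against EpiSC, and 2 rises and 0 falls between the fractions. Fitting only the groups compared gave 1 rise and 2 falls in Epi-Sox2 against EpiSC and 7 rises and 3 falls between the fractions. Epi-Sox2 against EpiSC had 4 rises with an offset of 50, without background correction and after cyclic loess, and 4 falls with the authors' values. An intensity trend gave 8 falls between the fractions, and without background correction 4 members of T9-EpiSC were higher by 1 log2 unit. The replicate block, which stands for no known pairing, gave 14 rises and 24 falls in EpiSC against ESC, 2 and 8 in Epi-Sox2 against EpiSC, 11 and 6 between the fractions, 11 and 22 in Epi-Sox2, 16 and 22 in EpiSC-GFP+ and 14 and 24 in EpiSC-GFP- against ESC. A slide block was not run because the files name no slides.

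Among differences of single genes that passed under at least 1 of the 2 settings compared, 30 turned in direction, all but 1 under median scaling or the second brightest probe. Sign changes of values that passed under neither, such as those of Cct6a, Hspa8 and Hspa9 in EpiSC against ESC, are not counted. Under median scaling against ESC, in Epi-Sox2 the differences became -0.67 (Cct6a), -0.18 (Dnajb1), -0.24 (Dnajb12), -0.21 (Dnajc30) and -0.48 (Hspa9, also -0.094 after cyclic loess). In EpiSC-GFP- they became -0.66 (Cct6a), -0.64 (Dnajb1), -0.28 (Dnajb12), -0.95 (Dnajc15), -0.28 (Dnajc17), -0.20 (Dnajc30) and -0.90 (Hspb8), and in EpiSC-GFP+ -0.66 (Dnajc15), -0.14 (Dnajc17), -0.33 (Dnajc30) and -0.035 (Hspb8). With the second brightest probe against ESC they became 0.019 (Clpx) and -2.79 (Dnajc2) in EpiSC, -2.89 (Dnajc2) and -0.35 (Hspa9) in Epi-Sox2, -4.38 (Dnajc2, not detected there), 0.37 (Hspa8) and 0.016 (Hspd1) in EpiSC-GFP+, and 0.50 (Hspa8) and 0.054 (Hspd1) in EpiSC-GFP-. Between the fractions they became 0.12 (Dnaja2), 0.80 (Dnajb6), -0.16 (Dnajc2) and -0.084 (Tcp1), where the second probes of Dnaja2 and Dnajc2 were detected in neither fraction, so that their values compare background readings and show no direction. The cause was not tested.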
